A study of Mus musculus with 23 samples.

Results

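The PIM kinases (Pim1, Pim2 and Pim3) and the D-type cyclins (Ccnd1, Ccnd2 and Ccnd3) were followed across 3 blood-forming and lymphoid tissues of mice with an altered STAT5B protein. The 6 genes were taken by symbol from the 32285 features of the deposited matrices. In bone marrow (BM), Y665F libraries held more Pim1, Pim2 and Ccnd2 RNA than wild-type (WT) libraries, and less Ccnd1 and Ccnd3 RNA. In lymph node (LN), Pim1 was the only one of the 6 genes to pass the test, in CD8 and in CD4 T cells of homozygous Y665F mice. No member passed the test between Y665H and WT in BM.

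PIM proteins are serine/threonine kinases without a regulatory domain, so the amount of protein made sets their activity. They promote survival and protein synthesis in blood cells, and their genes are known targets of cytokine receptors that act through STAT5. D-type cyclins bind CDK4 and CDK6, and the complexes phosphorylate the retinoblastoma protein early in the cell cycle. The 3 D-type cyclins overlap in function, and blood lineages use them in different proportions. STAT5B is a transcription factor that is activated by phosphorylation downstream of such receptors.

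All mice are labelled C57BL/6 and 2 months old (the methods of the study name C57BL/6N embryos), and differed at 1 tyrosine in the SH2 domain of STAT5B (Y665). The Y665F allele was made with Cas9 and an oligonucleotide donor that also carried a silent change, and the Y665H allele by base editing, so both are changes of the endogenous gene present in every cell. Single-cell RNA libraries came from LN (2 WT, 3 heterozygous Y665F and 2 homozygous Y665F), BM (2 WT, 2 Y665H and 2 Y665F) and spleen (1 WT, 1 Y665H and 1 Y665F). The labels give zygosity for LN alone. Each spleen library held CD45+ cells of several mice combined, so the spleen gives no replicates and no test, and no source used here names an enrichment step for BM. Nothing in the labels says that replicate libraries came from separate animals, so p-values measure the spread between these libraries.

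After quality filters, LN libraries held 4434 to 8537 cells, BM libraries 4093 to 15910 and spleen libraries 4826 to 7504. Before the filters, medians were 368 to 3116 unique molecular identifiers (UMIs) per barcode in LN, 1617 to 2809 in BM and 5046 to 6487 in spleen. Heterozygous replicate 3 and homozygous replicate 1 of LN stood apart, with 96.4% and 95.8% of barcodes under 500 genes. The Pim1 calls in LN T cells are also given without these libraries. Replicate 2 of Y665F in BM had 0% of barcodes under 500 genes, against 8.89% to 13.9% in the other BM libraries. In BM, replicate 1 of each genotype held Xist RNA (237.3 to 884.3 UMIs per 1000000 UMIs, CPM) and replicate 2 held Y-linked RNA (64.1 to 108.8 CPM), whereas the methods of the study name male mice. The spread between the BM replicates of a genotype thus includes this difference, for which the main test had no term. Cells were assigned to gates by UMIs of marker genes, and between 18.2% and 64.7% of the cells of a library entered no gate. A neutrophil-lineage gate in BM held 2 of 4093 and 8 of 10296 cells in WT, 15 and 7 cells in Y665H and 160 and 107 in Y665F. It was too small in WT and Y665H to be tested. All BM cells below thus means the cells of these libraries, and how they stand for whole marrow was not tested. Receptor contigs were found for 91.6% to 99.2% of LN cells in the T-cell gates and for at most 2.24% in the B-cell gate. Levels are in CPM, computed from the UMIs of a gene and of all genes in the cells of 1 gate and library, and were compared within a tissue only. Such a sum does not separate more RNA per cell from more cells that carry the RNA.

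Pim1 lies on mouse chromosome 17 (GRCm38, chr17:29490753-29496112, plus strand) and Pim2 on chromosome X (chrX:7878262-7883432, plus strand). Pim3 is at chr15:88862186-88865726 (plus strand), Ccnd1 at chr7:144929931-144939925 (minus strand), Ccnd2 at chr6:127125162-127152193 (minus strand) and Ccnd3 at chr17:47505051-47599691 (plus strand). RefSeq promoter windows of 300 bases were held for 4 of the 6 genes. None of their 6 windows contained TTCNNNGAA, the palindrome that STAT proteins bind, against 8.30% of the 32851 promoters in the table. These letters can lie outside the windows, so nothing follows for STAT5 binding. The stretches before the annotated starts of Pim1 and Pim2, the members that rose most in all BM cells, are shown with the GC box GGGCGG and its reverse complement CCGCCC in capitals (chr17:29490535-29490752 and chrX:7878056-7878261, GRCm38, plus strand, 5′ to 3′). The 218 bases of Pim1 hold 6 GC boxes and the 206 bases of Pim2 hold 1. Over the longer windows of 300 bases, 35.7% of all promoters in the table hold at least 1. The full window of Pim1 holds 7 and its other window 0, and the full window of Pim2 holds 1.
Pim1: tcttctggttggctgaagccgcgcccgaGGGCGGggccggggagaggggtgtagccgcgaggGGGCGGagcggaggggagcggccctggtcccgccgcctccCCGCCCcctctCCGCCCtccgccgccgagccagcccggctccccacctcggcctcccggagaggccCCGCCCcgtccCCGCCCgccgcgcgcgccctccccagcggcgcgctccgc
Pim2: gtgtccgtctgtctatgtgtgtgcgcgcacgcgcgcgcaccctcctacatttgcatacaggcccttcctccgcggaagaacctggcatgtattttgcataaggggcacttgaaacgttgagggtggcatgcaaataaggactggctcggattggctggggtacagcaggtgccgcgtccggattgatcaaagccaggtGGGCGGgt

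In WT marrow, the members differed in where they were expressed over the 7 gates tested. Pim1 had its highest mean level in the Stem gate (144.8 CPM), followed by lymphoid-primed cells, the B lineage, the monocyte lineage, megakaryocytes and granulocyte-monocyte progenitors (GMP, 41.0 CPM). Neighbours in this order overlapped between libraries, except that erythroid cells (12.5 CPM) lay below GMP. Pim2 was low throughout, at 5.61 CPM in the Stem gate and 1.78 CPM in erythroid cells. Ccnd1 was highest in the monocyte lineage (52.3 CPM), above the other gates in both libraries, and lowest in erythroid cells (3.66 CPM). Ccnd2 was highest in megakaryocytes (164.0 CPM), lymphoid-primed cells (155.1 CPM) and the Stem gate (144.2 CPM), which overlapped, and lowest in erythroid cells (49.6 CPM). Ccnd3, the D-type cyclin that pre-B cells need, stood at 535.3 CPM in the B lineage, above every other gate. Gate means of Pim3 went from 18.4 CPM in lymphoid-primed cells to 8.19 CPM in erythroid cells.

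Across all BM cells, Pim1 was at 56.7 and 35.8 CPM in the WT libraries, 44.2 and 31.7 in the Y665H libraries and 161.7 and 147.6 in the Y665F libraries (replicate 1 first, here and in all that follows). Both Y665F libraries lay far above the other 4. The log2 fold change of Y665F against WT was 1.61 ± 0.23 (SE, adjusted p = 0.00025, edgeR). Pim2 stood at 3.997 and 2.64 CPM in WT, 2.03 and 2.48 in Y665H and 18.6 and 11.1 in Y665F. It rose by a log2 fold change of 2.04 ± 0.30 (adjusted p = 0.00032). Of the 6 members, 5 passed an adjusted p of 0.05 in this comparison of all cells, as did 31.4% of all genes tested. Gates differ in size between genotypes, with 2421 and 3165 cells in the Stem gate of the Y665F libraries against 250 and 523 in WT, so values within gates follow.

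Over the 7 gates, which share no cells, 15 of 37 tests of a member between Y665F and WT passed. These were 2 of 6 in the Stem gate, where 3.68% of all genes passed, 2 of 6 in lymphoid-primed cells (8.4%), 2 of 6 in GMP (17.9%), 3 of 5 in the monocyte lineage (4.83%), 2 of 4 in megakaryocytes (10.6%), 4 of 6 in erythroid cells (28.3%) and 0 of 4 in the B lineage (0.662%). The counts in GMP and erythroid cells thus stand beside a high share of all genes. DESeq2 gave an adjusted p for 30 of the 37, and 10 passed, 9 of them among the 15. Of the other 6 edgeR calls, 4 did not pass in DESeq2 (Pim2 in lymphoid-primed cells, Ccnd1 in the monocyte lineage, and Pim1 and Ccnd3 in megakaryocytes) and both calls of the Stem gate had no adjusted p in DESeq2. Without WT replicate 2, 8 member tests passed in edgeR. Each of the 15 kept its direction in every alternative that gave it an adjusted p. RNA of the neutrophil lineage, from genes outside the 6, was also higher in Y665F within the gates, for example 194 to 206 CPM in the Stem gate against 19.2 to 44.8 CPM in WT. Marker RNA of the gates themselves went from 651 to 872 CPM in WT to 589 to 622 CPM in Y665F in the Stem gate and from 1562 to 1762 CPM to 1150 to 1222 CPM in the monocyte lineage. Megakaryocyte marker RNA went from 79.8 to 109 CPM to 136 to 336 CPM in the Stem gate and from 12.1 to 23.7 CPM to 42.0 to 155 CPM in the monocyte lineage, and GMP marker RNA in megakaryocytes from 447 to 667 CPM to 679 to 1299 CPM. The part of these shifts in the results was not tested.

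**Figure D1:**
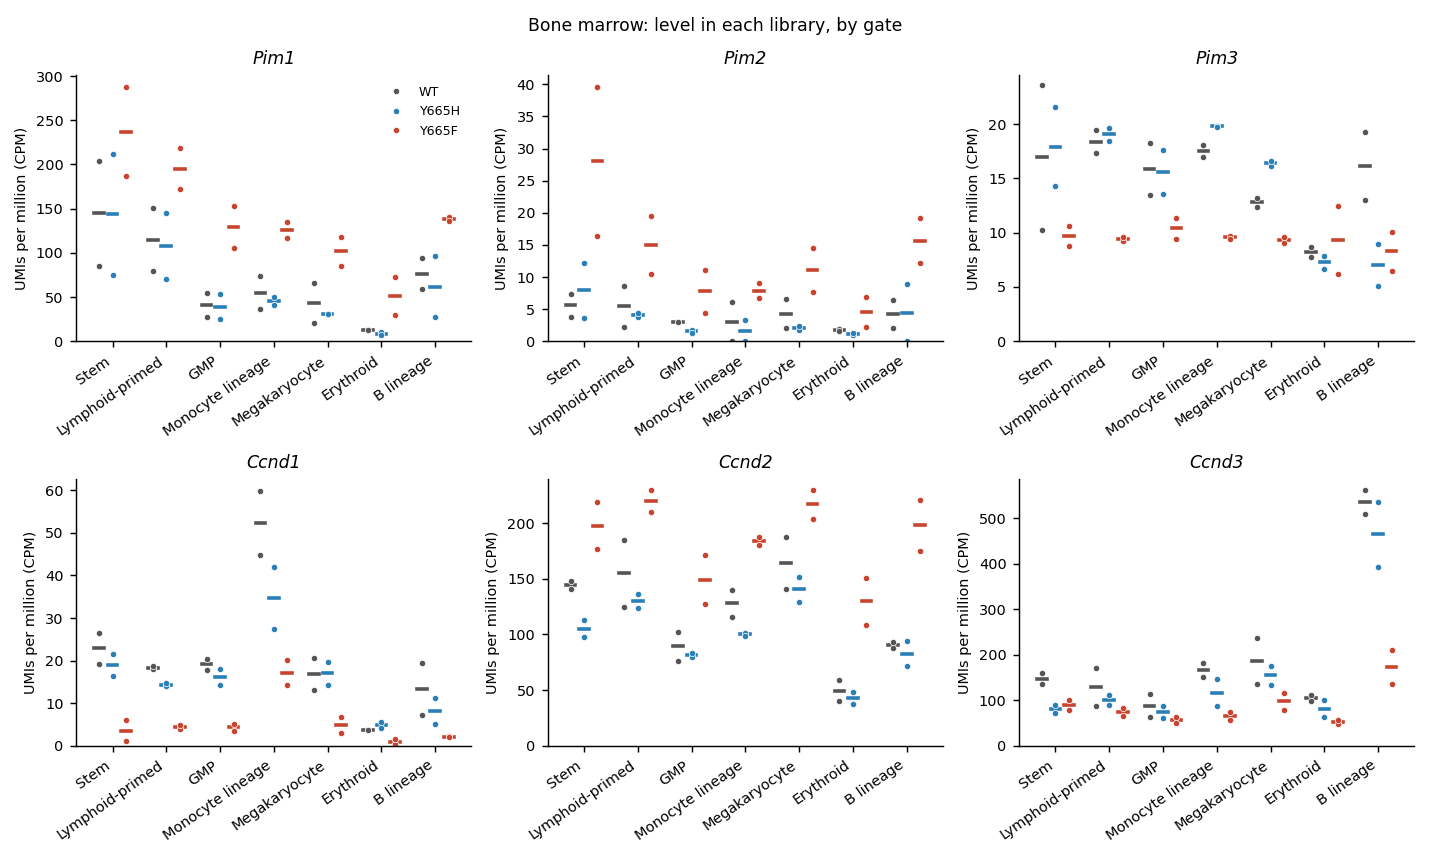
Level of each member (CPM, linear axes from 0) in each BM library, by gate and genotype, with points for libraries and bars for the mean of 2. The Y665F points lie above the WT points for Ccnd2 and below them for Ccnd1 in every gate, as in GMP, where Ccnd1 is at 3.46 and 5.06 CPM against 20.5 and 17.8 CPM.

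Pim1, the kinase of the family first found as a target of retroviral insertion in mouse lymphoma, rose in 4 of the 7 gates of Y665F marrow. In GMP it was at 54.1 and 27.8 CPM in WT, 53.4 and 24.8 in Y665H and 153.2 and 104.9 in Y665F, without overlap. The log2 fold change against WT was 1.67 ± 0.30 (adjusted p = 0.0008). In erythroid cells, where the gene is low, WT libraries had 12.8 and 12.3 CPM, Y665H 10.2 and 7.12 CPM and Y665F 29.2 and 73.1 CPM. The change was 1.72 ± 0.29 (adjusted p = 0.00056), with the Y665F libraries far apart. In the erythroid gate, early erythroid marker RNA was at 7005 to 10208 CPM in WT and 1544 to 3089 CPM in Y665F, GMP marker RNA at 171 to 193 CPM and 323 to 803 CPM, and megakaryocyte marker RNA at 12.5 to 13.04 CPM and 38.5 to 147 CPM, whose part in each erythroid value was not tested. Megakaryocytes went from 65.8 and 20.7 CPM in WT to 85.3 and 118.1 CPM in Y665F (1.38 ± 0.36, adjusted p = 0.011, and 0.066 in DESeq2). Monocyte-lineage cells went from 73.3 and 36.3 CPM to 134.5 and 117.1 CPM (1.31 ± 0.31, adjusted p = 0.016).

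In the Stem gate, by contrast, Pim1 was already high in WT and the groups overlapped. WT libraries were at 203.8 and 85.7 CPM, Y665H at 212.2 and 75.3 CPM and Y665F at 287.7 and 186.8 CPM. The difference from WT was 0.83 ± 0.39 on the log2 scale (adjusted p = 0.22). Replicate 1 was the higher one in each genotype here, and it is also the replicate with Xist RNA. Within each replicate number, Y665F was above WT, and with the replicate number as a block the Pim1 difference in the Stem gate was 0.88 and did not pass (adjusted p = 0.071). Lymphoid-primed cells had 150.4 and 78.9 CPM in WT and 218.3 and 172.5 CPM in Y665F, a difference of 0.88 ± 0.33 that did not pass (adjusted p = 0.1), but did with the block (0.89, adjusted p = 0.043). Marker RNA of lymphoid-primed cells in that gate spanned 1393 to 1505 CPM in WT and 742 to 797 CPM in Y665F, and that of GMP 928 to 1201 CPM and 1583 to 1601 CPM. Megakaryocyte marker RNA there was at 40.4 to 55.7 CPM and 113 to 323 CPM, and the part of these shifts in the values of the gate was not tested. The B lineage had 94.1 and 58.9 CPM in WT and 141.1 and 136.4 CPM in Y665F (0.93, adjusted p = 0.24). The Y665F libraries were thus above both WT libraries in 6 of 7 gates, the Stem gate being the exception. The gates come from the same libraries, and the share of all genes without overlap was not counted.

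Pim2, a kinase that works on translation beside mTOR, had the highest positive log2 fold change of the members in the Stem gate. It was at 7.38 and 3.84 CPM in WT (5 and 3 UMIs), 3.60 and 12.2 in Y665H and 39.6 and 16.4 in Y665F (256 and 116 UMIs). The 2 Y665F libraries lay above the other 4, and the change against WT was 2.42 ± 0.61 (adjusted p = 0.034, with an unadjusted p of 0.00157 and no adjusted p in DESeq2). In the Stem gate Pim2 met the count filter in the Y665F libraries alone. It was thus tested only through the group where it is high, and the call is among the passing tests counted above. Lymphoid-primed cells had 8.66 and 2.29 CPM in WT, 3.73 and 4.33 in Y665H and 19.5 and 10.4 in Y665F, a rise of 1.65 ± 0.47 (adjusted p = 0.037, and 0.11 in DESeq2). GMP held 2.92 and 3.04 CPM in WT and 11.2 and 4.43 CPM in Y665F, which did not pass against WT (1.36 ± 0.55, adjusted p = 0.087). Against Y665H, at 1.82 and 1.35 CPM, the same GMP libraries did pass (2.09 ± 0.55, adjusted p = 0.0077, with an unadjusted p of 0.00966 and no adjusted p in DESeq2). In GMP too, Pim2 met the count filter in the Y665F libraries alone, so it was tested only through the group where it is high. That call is among the passing tests counted against Y665H. Erythroid cells differed by 0.92 (adjusted p = 0.24). Pim2 fell below the count filter in the monocyte lineage, megakaryocytes and B lineage and was not tested there.

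Pim3, the third kinase of the family, showed values in the opposite direction. In lymphoid-primed cells it was at 17.3 and 19.4 CPM in WT, 19.7 and 18.4 in Y665H and 9.20 and 9.61 in Y665F. The Y665F libraries were below the other 4, yet the difference from WT did not pass (-0.95 ± 0.32, adjusted p = 0.071), while that from Y665H did (-1.21 ± 0.32, adjusted p = 0.016, and 0.0398 in DESeq2). GMP gave a like picture, with 18.3 and 13.5 CPM in WT, 17.6 and 13.5 in Y665H and 9.42 and 11.4 in Y665F (against Y665H, -0.83 ± 0.30, adjusted p = 0.041, and 0.14 in DESeq2). No gate passed for Pim3 between Y665F and WT, and in erythroid cells, at 8.65 and 7.73 CPM in WT and 6.18 and 12.4 CPM in Y665F, the groups overlapped (-0.14, adjusted p = 0.78).

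**Figure D2:**
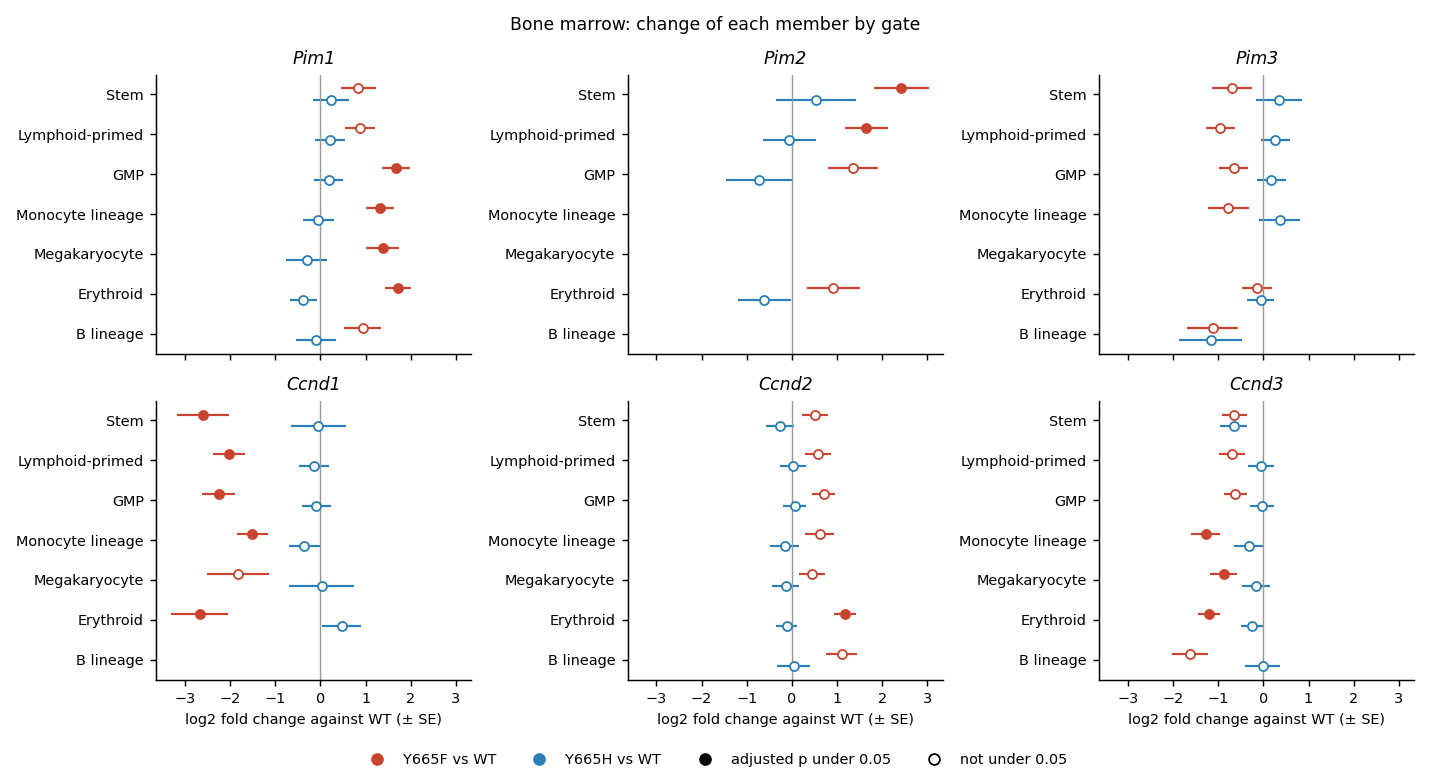
Log2 fold change of each member against WT (± SE, edgeR) by BM gate, for Y665F in red and Y665H in blue, with filled points for an adjusted p under 0.05 and no point where the gene was below the count filter. Filled points are all from Y665F: Pim1 and Pim2 to the right of 0, Ccnd1 and Ccnd3 to the left, and Ccnd2 to the right in erythroid cells (1.18).

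Ccnd1, the D-type cyclin that couples growth factor signals to CDK4 in many solid tissues, fell in Y665F in 5 of the 6 gates where it was tested. In the Stem gate WT libraries had 26.6 and 19.2 CPM, Y665H 21.6 and 16.3 CPM and Y665F 1.08 and 5.95 CPM (7 and 42 UMIs). It fell by 2.60 ± 0.57 on the log2 scale (adjusted p = 0.019, with an unadjusted p of 5.22e-05 and no adjusted p in DESeq2). In the Stem gate no Y665F library met the count filter for Ccnd1, so it was tested only through the groups where it is high. In GMP the levels were 20.5 and 17.8 CPM in WT, 14.3 and 18.1 in Y665H and 3.46 and 5.06 in Y665F (-2.25 ± 0.37, adjusted p = 0.00037). Monocyte-lineage marker RNA in that gate was at 999 to 1321 CPM in WT and 628 to 700 CPM in Y665F, and megakaryocyte marker RNA at 15.7 to 21.9 CPM and 87.9 to 166 CPM, whose part was not tested. Y665F libraries were below both WT and both Y665H libraries in each gate, and the share of all genes that separate so was not counted. Lymphoid-primed cells went from 17.9 and 18.7 CPM to 3.94 and 4.81 CPM (-2.03 ± 0.35, adjusted p = 0.0029). The monocyte lineage, where WT had most Ccnd1, went from 59.8 and 44.8 CPM to 20.05 and 14.1 CPM (-1.51 ± 0.35, adjusted p = 0.014, and 0.052 in DESeq2). Erythroid cells held only 2 and 3 UMIs in Y665F (0.309 and 1.49 CPM) against 3.71 and 3.62 CPM in WT (-2.68 ± 0.64, adjusted p = 0.0049). There too, no Y665F library met the count filter for Ccnd1. The Ccnd1 calls of the Stem gate and of erythroid cells are among the passing tests counted above. In megakaryocytes the difference of -1.83 ± 0.69 did not pass against WT (adjusted p = 0.076).

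Ccnd2 is the D-type cyclin known to respond to cytokines in lymphocytes and myeloid cells. It was higher in both Y665F libraries than in the other 4 in each of the 7 gates. The gates come from the same libraries, and the share of all genes that separate so was not counted. CPM are scaled to library totals, with which the median log2 fold change of all genes was -0.11 to 0.20 against WT within gates. Against Y665H that median was 0.10 to 0.32. The test of Ccnd2 passed between Y665F and WT in erythroid cells alone among the gates. There it was at 59.2 and 40.0 CPM in WT, 37.2 and 48.0 in Y665H and 108.7 and 151.2 in Y665F (1.18 ± 0.24, adjusted p = 0.0018). GMP had 102.3 and 76.1 CPM in WT and 127.3 and 171.6 CPM in Y665F (0.70 ± 0.25, adjusted p = 0.056, and 0.036 for Ccnd2 in GMP with the replicate block). The B lineage had 87.7 and 93.5 CPM in WT and 175.5 and 221.3 CPM in Y665F (1.11 ± 0.34, adjusted p = 0.12). The Stem gate held 147.7 and 140.7 CPM in WT and 177.1 and 218.8 CPM in Y665F (0.52, adjusted p = 0.3). Across all cells Ccnd2 passed, from 102.6 and 86.6 CPM in WT to 166.3 and 208.9 CPM in Y665F (0.83 ± 0.24, adjusted p = 0.015).

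Ccnd3 fell in Y665F in 3 gates. In erythroid cells, in which this cyclin is known to set the number of divisions, WT libraries had 111.4 and 97.4 CPM, Y665H 100.9 and 62.1 CPM and Y665F 48.5 and 55.7 CPM (-1.21 ± 0.25, adjusted p = 0.002). The monocyte lineage went from 182.6 and 151.2 CPM in WT to 73.1 and 55.9 CPM in Y665F (-1.28 ± 0.33, adjusted p = 0.025). Megakaryocytes went from 236.7 and 136.5 CPM to 116.5 and 78.0 CPM (-0.88 ± 0.30, adjusted p = 0.047, and 0.097 in DESeq2). Y665F and WT did not overlap in any of these gates. The difference in the B lineage was larger in size but did not pass against WT, with 509.7 and 561.0 CPM in WT, 535.6 and 393.3 in Y665H and 210.5 and 134.4 in Y665F (-1.63 ± 0.40, adjusted p = 0.061 by edgeR). It passed in DESeq2 (adjusted p = 0.0027) and for Ccnd3 in the B lineage with the replicate block (adjusted p = 0.011). Against Y665H it passed in edgeR (-1.62 ± 0.40, adjusted p = 0.042). B-lineage marker RNA in that gate spanned 7844 to 10515 CPM in WT and 3338 to 10651 CPM in Y665F. GMP marker RNA in the B-lineage gate was at 490 to 1101 CPM in WT and 1416 to 1453 CPM in Y665F, megakaryocyte marker RNA at 31.5 to 55.2 CPM and 130 to 286 CPM, and early erythroid marker RNA at 477 to 1013 CPM and 188 to 411 CPM. The part of these differences in cell make-up was not tested.

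The make-up of the D-type cyclin RNA can be read within each library. Ccnd2 made up 43.3% and 48.7% of the UMIs of the 3 D-type cyclins in WT GMP, 44.1% and 51.4% in Y665H and 65.5% and 75.6% in Y665F. In erythroid cells its share was 33.9% and 28.4% in WT, 26.2% and 41.5% in Y665H and 69.0% and 72.6% in Y665F. In the B lineage, which relies on Ccnd3, it was 14.2% and 14.1% in WT, 14.6% and 15.2% in Y665H and 45.2% and 61.9% in Y665F. Y665F libraries lay above the other 4 in each of the 7 gates. The gates come from the same libraries, and how often the shares of other gene groups separate so was not counted. The shifts of marker RNA given above for these gates apply to the shares as well, and their part was not tested. The summed level of the 3 cyclins overlapped between Y665F and WT in GMP (194.2 and 226.9 CPM against 236.1 and 156.1 CPM) and in erythroid cells (157.5 and 208.4 CPM against 174.3 and 141.0 CPM). It also overlapped in the Stem gate, lymphoid-primed cells and megakaryocytes. In the B lineage it was lower in Y665F, at 388.1 and 357.7 CPM against 616.8 and 661.6 CPM, as in the monocyte lineage, at 280.7 and 250.4 CPM against 382.2 and 312.2 CPM. No test was run on these shares, which rest on the same libraries as the tests of single genes.

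**Figure D3:**
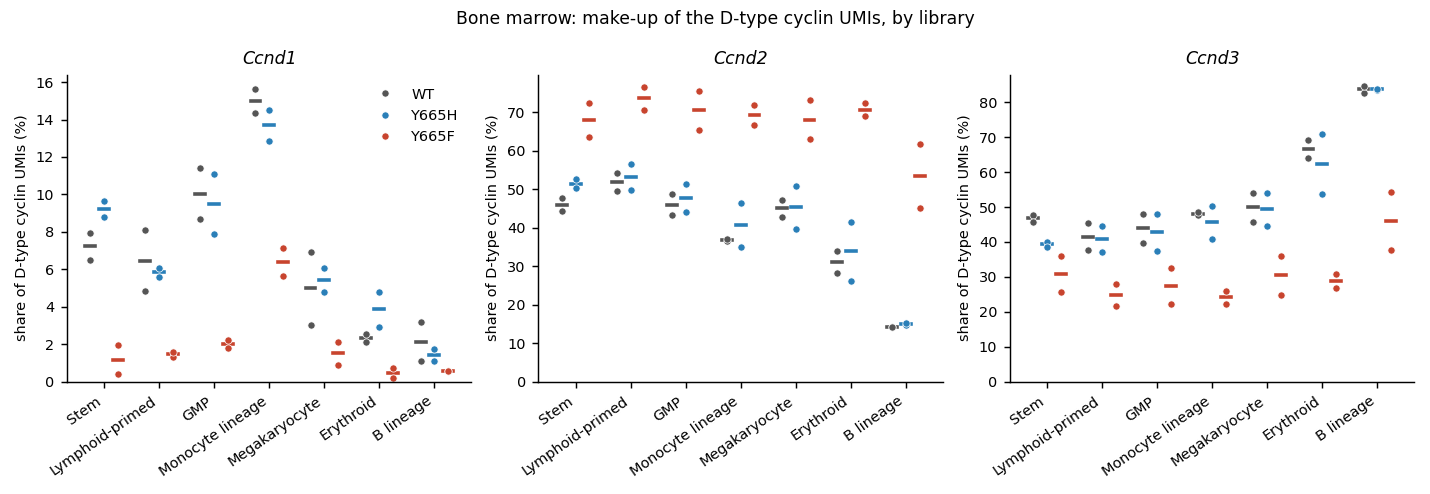
Share of each D-type cyclin (%) among the UMIs of all 3 in each BM library, by gate and genotype, with points for libraries and bars for means of 2; each panel has its own axis from 0. Ccnd2 lies between 45.2% and 76.7% in the Y665F libraries and between 14.1% and 56.7% in the WT and Y665H libraries.

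Y665F was also compared with Y665H in BM. Of 37 tests over the 7 gates, 17 passed. These were 1 of 6 in the Stem gate (9.36% of all genes passed), 3 of 6 in lymphoid-primed cells (16.4%), 4 of 6 in GMP (28.2%), 2 of 5 in the monocyte lineage (11.7%), 2 of 4 in megakaryocytes (15.8%), 4 of 6 in erythroid cells (34.2%) and 1 of 4 in the B lineage (2.96%). All 6 members passed in all cells together (45.1% of all genes), Ccnd3 just so (adjusted p = 0.04996). With scaling by library totals 4 of the 6 passed there, as did 6634 of 13685 genes. Ccnd3 in all cells overlapped, at 89.1 and 71.0 CPM in Y665F and 107.0 and 74.5 CPM in Y665H. Pim1 differed most in erythroid cells (2.11 ± 0.29, adjusted p = 0.00016), followed by megakaryocytes (1.68 ± 0.36, adjusted p = 0.0015) and GMP (1.49 ± 0.29, adjusted p = 0.00084). Ccnd1 differed by -3.14 ± 0.62 in erythroid cells (adjusted p = 0.0011). In the Stem gate, erythroid cells and megakaryocytes, no Y665F library met the count filter for Ccnd1. It was tested there only through the groups where it is high, and these calls are among the 17. DESeq2 passed 11 of the 17. It gave no adjusted p for 3 (Ccnd1 in the Stem gate and in megakaryocytes, and Pim2 in GMP) and did not pass 3 (Pim2 in lymphoid-primed cells, Pim3 in GMP and Ccnd1 in the monocyte lineage). Without Y665H replicate 1, 7 tests passed in edgeR. Y665F is the same 2 libraries in this comparison and in that with WT.

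Between Y665H and WT, 0 of 37 member tests passed in BM by edgeR, and 0 by DESeq2. By edgeR the background was 0.0% of all genes in every gate and 0.0% in all cells, with 151 to 442 genes of a gate at an unadjusted p under 0.05. By DESeq2, 2 of 8001 genes passed in the B lineage. Of the members, only Ccnd3 in the Stem gate was under that unadjusted p, at 159.5 and 134.3 CPM in WT and 89.9 and 71.3 in Y665H (-0.66 ± 0.30, adjusted p = 0.93). Ccnd2 in the Stem gate was at 112.7 and 97.7 in Y665H, below both WT libraries. Ccnd1 in the monocyte lineage was at 42.1 and 27.4 in Y665H, below the 59.8 and 44.8 CPM of WT. Also below both WT libraries were Ccnd1 in lymphoid-primed cells, Ccnd2 and Ccnd3 in the monocyte lineage, Pim1 and Pim2 in erythroid cells, Pim2 in GMP and Pim3 in the B lineage. Above both WT libraries were Ccnd1 in erythroid cells, at 4.17 and 5.56 in Y665H against 3.71 and 3.62, and Pim3 in megakaryocytes (16.1 and 16.6 against 13.2 and 12.4) and in the monocyte lineage (19.8 and 19.8 against 18.0 and 16.9). These values do not show that Y665H and WT act alike, since 2 libraries a group set the precision. CPM are scaled to library totals, with which the median log2 fold change of all genes was between -0.24 and -0.07 within gates. Levels below WT are thus in part shared with all genes. The share of all genes without overlap was not counted.

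Other genes around these pathways were counted in the same tests. Of the STAT5 feedback and target genes, 2 of 7 tested rose in the Stem gate between Y665F and WT, 4 of 8 in lymphoid-primed cells, 4 of 7 in GMP, 3 of 5 in the monocyte lineage, 3 of 4 in megakaryocytes, 5 of 7 in erythroid cells and 1 of 6 in the B lineage, and none fell. Of all genes, 1.09% rose in the Stem gate, 3.21% in lymphoid-primed cells, 7.04% in GMP, 1.66% in the monocyte lineage, 4.46% in megakaryocytes, 12.8% in erythroid cells and 0.212% in the B lineage. Their median log2 fold change was between 1.10 and 1.72 in the 7 gates, where the median of all genes was between -0.02 and 0.04. In GMP these were Socs2 (5.06) and Cish (2.71), which restrain cytokine receptors, with the cytokine Osm (1.59) and the survival factor Mcl1 (1.26). The STAT5 list and the members were chosen with such results known, so their shared direction is no independent support. Among the partners of the D-type cyclins and other regulators of G1, 3 rose and 3 fell of 19 tested in GMP, where 10.8% of all genes fell. The CDK inhibitor Cdkn1a (1.29) and the phosphatase Cdc25a (1.11) rose, and the transcription factors E2f4 (-1.32) and Tfdp1 (-0.94) and the CDK4/CDK6 inhibitor Cdkn2c (-1.24) fell. Cdk6, a catalytic partner of the D-type cyclins named after its value was seen, rose by 0.93.

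In erythroid cells, where 15.5% of all genes fell, 3 of 19 G1 genes rose and 5 fell, with Cdk6 (1.27) and Cdk4 (-1.07), the other catalytic partner, on opposite sides. In the monocyte lineage 1 of 19 G1 genes rose (Cdkn1a, 1.74) and in megakaryocytes 1 of 14 (Cdk6, 1.09), and none fell. No G1 gene of 18 passed in the Stem gate, 0 of 19 in lymphoid-primed cells and 0 of 19 in the B lineage. Of the substrates and partners of PIM kinases, 5 of 18 rose and 1 fell in GMP, and 6 of 19 rose and 2 fell in erythroid cells. In the other gates 3 of 15 rose in megakaryocytes, 1 of 17 in the Stem gate, 1 of 19 in lymphoid-primed cells, 1 of 17 in the monocyte lineage and 0 of 19 in the B lineage, and none fell. Runx1, a transcription factor that PIM1 phosphorylates, rose in erythroid cells (1.499), and Eif4ebp1, the repressor of translation, fell (-1.37). The chemokine receptor Cxcr4 rose there as well (0.85). Of 14 proliferation genes, 4 fell and 0 rose in GMP (Rrm2, -2.33, and Ccnb2, -1.84, among them), and 6 fell and 0 rose in erythroid cells. In the Stem gate 1 of 14 fell (Rrm2, -1.20), as did 2.59% of all genes. In lymphoid-primed cells 2 fell (5.18% of all genes), in the monocyte lineage 3 (3.17%), in the B lineage 2 (0.45%) and in megakaryocytes 3 (6.11%), and in these gates Mki67 in megakaryocytes was the 1 proliferation gene that rose (1.22). The median of that list was between -0.51 and 0.25 over the gates, and its part in the cyclin values was not tested.

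The members were also compared with all genes by the pattern of their levels over 50 pairs of a BM gate and a library. These pairs share libraries and the correlations are a description. Among 7658 genes, Gramd1a (r = 0.92) and Rbpms (r = 0.90) were most like Pim1, and Pkd1 (r = 0.82) and Dag1 (r = 0.77) most like Pim2. Ccnd1 was most like Cnpy3 (r = 0.80), Ccnd2 most like Itih5 (r = 0.83), Ccnd3 most like Ptp4a3 (r = 0.84) and Pim3 most like Dmac2 (r = 0.79). No member was among the 3 nearest genes of another. Only genes with a mean of at least 10 CPM were ranked, so Pim2, at a mean of 6.95 CPM, could not be among them.

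In LN, Pim1 was highest in regulatory T cells (Treg) of WT mice, at a mean of 352.8 CPM, above CD8 T cells with Ccl5 (117.4 CPM) and CD4 T cells (110.2 CPM), which overlapped. B cells (75.9 CPM) and CD8 T cells without Ccl5 (65.9 CPM) followed. Pim2 was highest in both CD8 T-cell gates (125.0 and 113.6 CPM) and lower in Treg, CD4 T cells and B cells. Ccnd2 was at 285 to 347 CPM in T-cell gates against 43.3 CPM in B cells, and Ccnd3 at 292 to 360 CPM against 217.7 CPM. Ccnd1 was nearly undetected in the gated cells, with 0 to 5 UMIs in a gate and library, and passed the count filter in no gate. All cells of a library held 4 to 61 Ccnd1 UMIs (0.735 to 7.56 CPM), and Ccnd1 in all cells did not pass between homozygous and WT mice (-1.09 ± 0.63, adjusted p = 0.37). Over 33 pairs of an LN gate and a library and 8093 genes, Pim1 was most like Vim (r = 0.85) and Tnfrsf18 (r = 0.84), Pim2 most like Cd8b1 (r = 0.89) and Ccnd2 most like Fyb (r = 0.98), again as a description.

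Pim1 in CD8 T cells was at 65.5 and 76.5 CPM in WT, 95.9, 94.1 and 161.2 CPM in heterozygous and 156.1 and 144.4 CPM in homozygous libraries. The homozygous and the heterozygous libraries all lay above WT. Pim1 rose in homozygous mice by a log2 fold change of 1.09 ± 0.18 (adjusted p = 0.00072), and the heterozygous difference of 0.59 ± 0.16 did not pass (adjusted p = 0.082). CD4 T cells held 85.0 and 135.3 CPM in WT, 112.8, 130.3 and 196.5 CPM in heterozygous and 226.6 and 315.9 CPM in homozygous libraries, of which homozygous replicate 1 rests on 13 UMIs. Pim1 rose there by 1.40 ± 0.21 against WT (adjusted p = 0.00016) and by 1.29 ± 0.19 against heterozygous mice (adjusted p = 0.00033, where 0.0464% of all genes passed in edgeR and 0 of 6468 in DESeq2). With both shallow libraries left out, the changes against WT were 1.08 in CD8 T cells (adjusted p = 0.00019) and 1.49 in CD4 T cells (adjusted p = 0.00098). Without homozygous replicate 2 neither passed, at 1.10 (adjusted p = 0.051) and 0.74 (adjusted p = 0.79). DESeq2 did not call the CD4 T-cell change (adjusted p = 0.39), nor did stricter gates (adjusted p = 0.056). Treg, split from CD4 T cells by Foxp3 UMIs, held more Pim1 in WT (a mean of 352.8 CPM against 110.2 CPM). Relative to CD4 T cells, Treg were more numerous in both homozygous libraries than in both WT libraries. The part of Treg without a Foxp3 UMI in the LN CD4 T-cell values was not tested.

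Cells with a Ccl5 UMI, a chemokine of memory and effector cells, made up 94 of 1171 and 170 of 2409 CD8 T cells in WT, and 478 of 1238 and 802 of 1676 in homozygous mice. Pim1 did not pass within either Ccl5 gate. Without Ccl5, it was at 58.7 and 73.1 CPM in WT and 131.1 and 111.5 CPM in homozygous mice (0.83 ± 0.21, adjusted p = 0.14, with 0.205% of genes passing). With Ccl5, it was at 122.2 and 112.6 CPM in WT and 190.5 and 172.5 CPM in homozygous mice (0.64 ± 0.23, adjusted p = 0.46, with 0.0586% of genes passing). The homozygous libraries lay above WT in both. The Ccl5 make-up thus moves with the result in CD8 T cells, and its part was not tested beyond these gates.

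Treg had the highest Pim1 levels of the LN gates in every genotype, at 287.8 and 417.8 CPM in WT, 393.4, 374.0 and 639.5 CPM in heterozygous and 759.8 and 545.2 CPM in homozygous mice. The homozygous difference from WT was 0.72 ± 0.24 and did not pass (adjusted p = 0.45). In B cells Pim1 was at 73.1 and 78.6 CPM in WT and 91.7 and 139.6 CPM in homozygous mice (0.75 ± 0.23, adjusted p = 0.33). Ccnd3 in B cells was at 150.6 and 284.8 CPM in WT and 116.2 and 117.9 CPM in homozygous mice (-0.87 ± 0.30, adjusted p = 0.38). In CD4 T cells Ccnd3 was at 356.3 and 363.2 CPM in WT and 261.4 and 250.4 CPM in homozygous mice (-0.47 ± 0.19, adjusted p = 0.5). Ccnd2 in CD8 T cells was at 304.6 and 322.7 CPM in WT and 275.0 and 243.8 CPM in homozygous mice (-0.26 ± 0.13, adjusted p = 0.41). In CD8 T cells Pim2 overlapped between WT (91.1 and 138.1 CPM) and homozygous mice (138.9 and 112.4 CPM), and Pim3 was at 17.0 and 19.8 CPM in WT and 22.9 and 21.3 CPM in homozygous mice.

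Over the 4 LN gates that share no cells, 2 of 18 member tests passed between homozygous and WT mice. These were 1 of 5 in CD8 T cells (1.85% of all genes passed), 1 of 5 in CD4 T cells (0.464%), 0 of 3 in Treg (0.062%) and 0 of 5 in B cells (0.113%), and 1 of 6 in all cells (4.52%). At an unadjusted p under 0.05, 6 of the 18 were found, as were 14.5% of all genes in CD8 T cells, 8.01% in CD4 T cells, 7.13% in Treg and 8.21% in B cells. Between heterozygous and WT mice 0 of 18 passed, with 2 at an unadjusted p under 0.05 and 0 by DESeq2. Of all genes, 9.56% were at that unadjusted p in CD8 T cells, 6.05% in CD4 T cells, 4.12% in Treg and 7.6% in B cells. The share of all genes passing there was 1.05% in CD8 T cells, 0.232% in CD4 T cells, 0.093% in Treg, 0.609% in B cells and 0.869% in all cells, and 0.0342% and 0.0% in CD8 T cells without and with Ccl5. The 2 comparisons share the WT libraries. A test of whether the homozygous change differed between CD8 and CD4 T cells passed for 0 of 5 members (24 of 8897 genes by edgeR, 560 at an unadjusted p under 0.05, and 0 members by DESeq2).

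**Figure D4:**
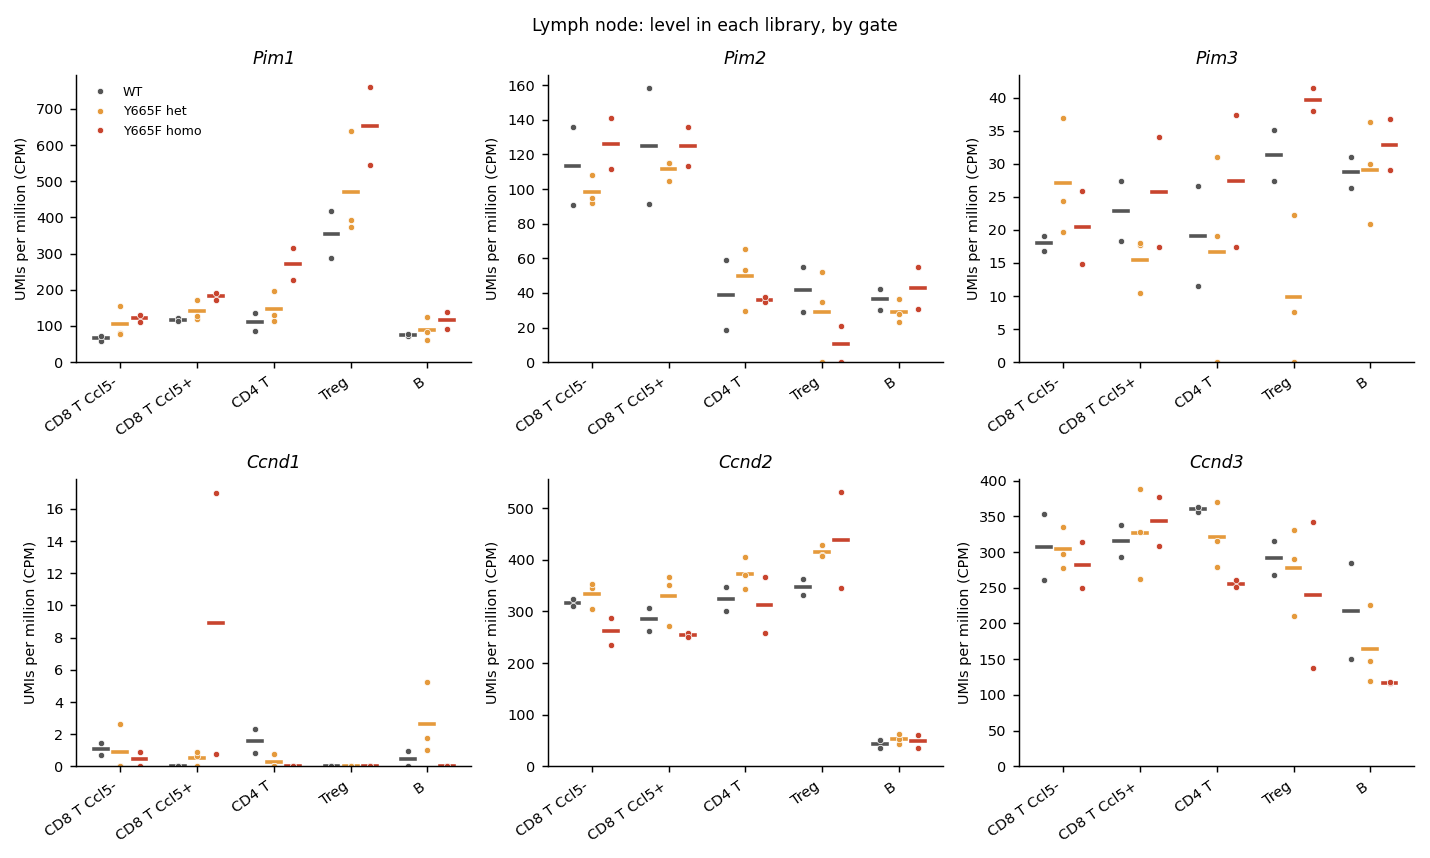
Level of each member (CPM, linear axes from 0) in each LN library, by gate and genotype, with points for libraries and bars for the mean. The homozygous points for Pim1 in CD4 T cells, 226.6 and 315.9 CPM, lie above all WT and heterozygous points, and Ccnd1 rests on 0 to 5 UMIs a point.

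Of the neighbouring genes in LN, Bcl2, the survival gene of the STAT5 list, rose in CD8 T cells of homozygous (0.94, adjusted p = 0.00083) and heterozygous mice (0.75, adjusted p = 0.0058), as 1 of 10 genes tested. In CD4 T cells it rose in both as well (0.82 and 0.86), as 1 of 7. The median of the STAT5 list in CD4 T cells was -0.18 in homozygous and -0.32 in heterozygous mice, where that of all genes was -0.011 and -0.002. In CD8 T cells the list had medians of 0.13 and 0.02. Over all LN cells 1 of its 11 genes rose and 1 fell in each comparison with WT. Myc, whose protein PIM1 stabilises, rose in CD8 T cells of homozygous (0.59) and heterozygous mice (0.56), as 1 of 17 PIM substrates and partners. No G1 gene passed in any LN gate. Of 13 proliferation genes 8 fell in B cells of heterozygous mice (median -2.65), and none passed in homozygous mice (median -1.25).

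In the spleen, with 1 library a genotype, values are given with 95% intervals that cover counting error only, and a ratio of 1.5 either way was set as the size to name. Pim1 in CD8 T cells was at 69.8 CPM in WT, 78.4 in Y665H and 141.2 in Y665F, a ratio of Y665F to WT of 2.02 (1.87 to 2.20). In CD4 T cells the levels were 91.5, 106.2 and 179.5 CPM (1.96, 1.77 to 2.17), and in Treg 375.2, 385.6 and 578.2 CPM (1.54, 1.37 to 1.73). B cells, at 61.5, 61.2 and 56.8 CPM, gave 0.924 (0.760 to 1.12), and natural killer (NK) cells 1.06. Within CD8 T cells the ratio was 1.75 (1.55 to 1.98) at low Ccl5 and 1.43 (1.26 to 1.63) at high Ccl5. Neutrophil marker RNA in the spleen CD8 T-cell gate was at 26.1 CPM in WT, 286 in Y665H and 242 in Y665F, and in the CD4 T-cell gate at 20.3, 308 and 244 CPM, and its part in the Pim1 values was not tested. NK marker RNA in the high-Ccl5 gate was at 933 CPM in WT, 501 in Y665H and 359 in Y665F, in a tissue whose WT NK cells held Pim1 at 308.6 CPM, and its part was likewise not tested. Cells of high Ccl5 made up 312 of 1654 CD8 T cells in WT and 1113 of 1812 in Y665F. Spleen Treg numbered 206 beside 1283 CD4 T cells in WT, 181 beside 1464 in Y665H and 309 beside 723 in Y665F. The part of Treg without a Foxp3 UMI in the spleen CD4 T-cell values was not tested.

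Neutrophils of the spleen were the gate with the highest Pim1 level in WT (632.4 CPM) and Y665H (764.0 CPM), and Y665F neutrophils had 166.6 CPM, a ratio to WT of 0.263 (0.215 to 0.325). Ccnd2 followed with 68.2, 62.9 and 12.2 CPM (0.179), and Ccnd3 went the other way with 241.1, 314.3 and 364.9 CPM (1.51, 1.14 to 2.04). The WT gate held 69 cells, the Y665H gate 430 and the Y665F gate 193. Their median UMIs were 2953, 3108.5 and 8597, and neutrophil marker RNA stood at 158788, 188433 and 263065 CPM. A different depth and marker level thus go with these values, and their part was not tested.

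Among the cyclins of the other spleen gates, Ccnd2 in NK cells was at 491.8 CPM in WT, 472.6 in Y665H and 872.8 in Y665F (1.77, 1.58 to 1.99). In CD8 T cells it was at 515.9, 484.4 and 607.7 CPM, and in CD4 T cells at 544.0, 449.3 and 716.4 CPM, ratios under 1.5. Ccnd1 in CD4 T cells was at 13.8, 14.3 and 7.20 CPM (0.520, 0.342 to 0.772), and in B cells at 8.66, 9.28 and 3.18 CPM (0.367). In NK cells Ccnd1 rests on 13 UMIs in Y665F and 5 in WT. In CD8 T cells of high Ccl5 the Ccnd1 ratio was 0.529 (0.228 to 1.33) for Y665F and 2.36 (0.983 to 6.07) for Y665H, on 19, 16 and 9 UMIs in Y665F, Y665H and WT. Plasma cells were few (25 in WT, 28 in Y665H and 11 in Y665F), and Ccnd1 there was at 44.2 CPM in WT (20 UMIs) and 2.33 in Y665H (1 UMI), a ratio of 0.0527 (0.00127 to 0.329). Pim2 in CD8 T cells was at 40.8, 45.1 and 56.1 CPM (1.38, 1.23 to 1.54).

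**Figure D5:**
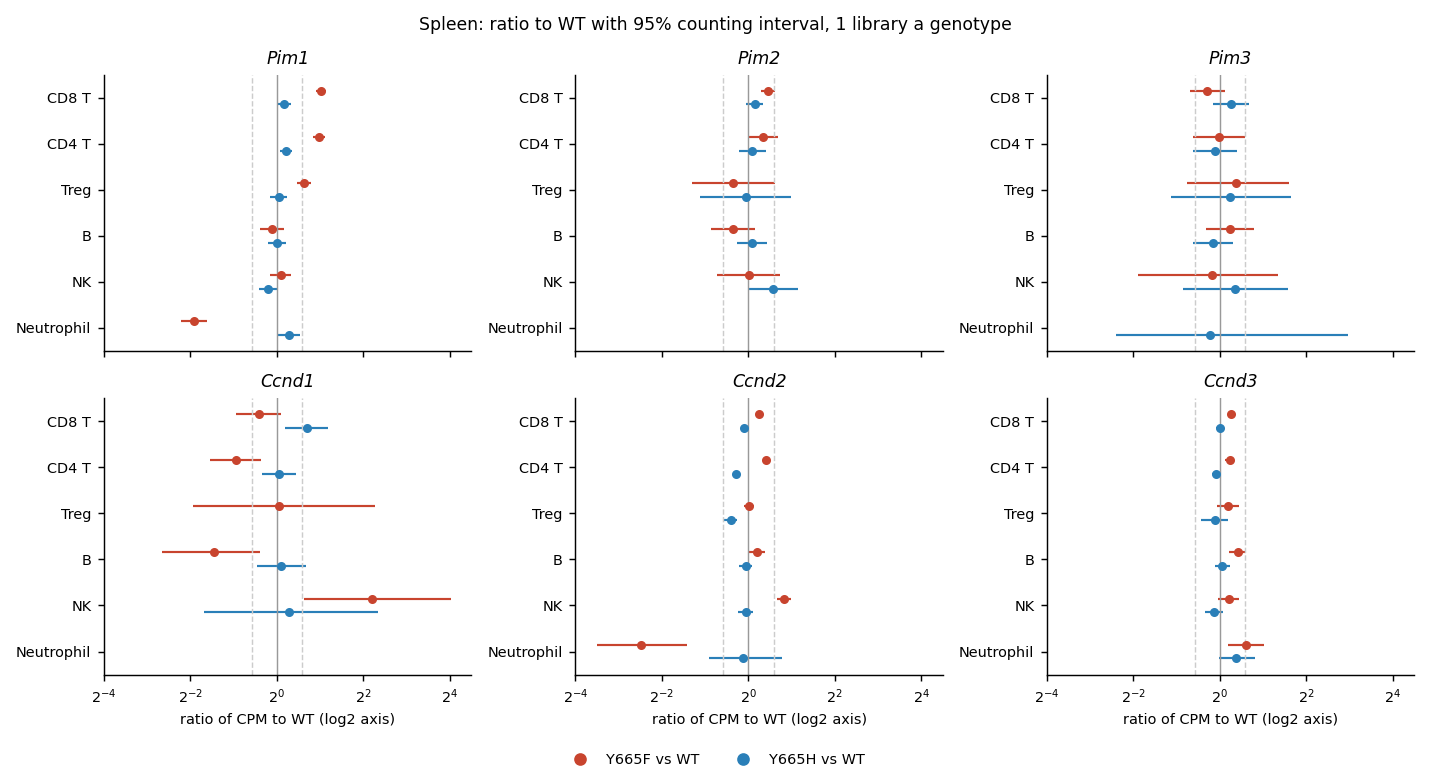
Ratio of each member's CPM to WT in the spleen (log2 axis) by gate, for Y665F in red and Y665H in blue, with 95% counting intervals; dashed lines mark a ratio of 1.5 either way, and gates with too few UMIs have no point. Pim1 of Y665F lies right of the line in CD8 T cells, CD4 T cells and Treg, and at 0.263 in neutrophils.

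Counting ratios of at least 1.5 either way over 6 gates that share no cells and exclude plasma cells, Y665F differed from WT for 1 of 6 members in CD8 T cells (20.2% of all genes), 2 of 6 in CD4 T cells (19.6%), 1 of 6 in Treg (23.7%), 1 of 6 in B cells (15.9%), 2 of 6 in NK cells (26.9%) and 3 of 3 with enough UMIs in neutrophils (62.0%). Y665H differed for 1 of 6 in CD8 T cells (13.2%), where Ccnd1 was at 8.97 CPM against 5.58 CPM (1.61, 1.15 to 2.26). It differed for 0 members in CD4 T cells (13.3%), Treg (22.6%), B cells (13.6%), NK cells (20.1%) and neutrophils (39.2%). The members' shares are near those of all genes in most gates, so the counts say nothing particular about the members. Having 1 library of each genotype, the spleen values compare those libraries and not the genotypes.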

How the data were processed

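The 16 expression libraries were read as deposited by the authors, as raw counts of UMIs per gene and barcode. Per the file headers, they came from Cell Ranger 5.0.0 (LN) or 6.0.0 (spleen, BM), and the submitters' processing notes list Cell Ranger 5.0, Seurat 4.0 and mm10. The labels name a 3′ kit and the methods of the study a 5′ kit, so levels were compared within a tissue only. The 7 T-cell receptor tables, with contigs and UMI counts as deposited by the authors, served to check the T-cell gates. No column of values per sample was left unused (0).

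Barcodes under 200 genes or over 10% mitochondrial UMIs were dropped, and the barcodes with the highest doublet scores were removed at 0.8% per 1000 barcodes. Gates were set on marker UMIs. T cells needed T-cell receptor RNA and at most 1 B-cell UMI, and were split by Cd4, Cd8a or Cd8b1 and Foxp3. Stem cells lacked all lineage markers and held Hlf, Mecom, Procr or Fgd5, and lymphoid-primed cells held Dntt or Flt3. Other BM gates needed UMIs of erythroid genes such as Klf1 and Epor (erythroid; 1 further marker of this gate is not reported here), Pf4, Ppbp or Gp9 (megakaryocyte), Mpo, Elane, Prtn3 or Ctsg (GMP), or Csf1r, Ly6c2, F13a1 or Ms4a6c (monocyte lineage), and cells of more than 1 lineage were left out. Gate limits were set after marker counts, but not the levels of the 6 genes, had been seen. The 6 genes and all lists were chosen with earlier results of these data known.

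UMIs were summed per library and gate with at least 20 cells. The quasi-likelihood test of edgeR 4.0.16 (limma 3.58.1, R 4.3.3) was fitted on the counts over all genes that passed filterByExpr, with TMM scaling and the 3 genotypes of a tissue fitted together. P-values were adjusted by the Benjamini-Hochberg method over all genes of a gate, with a threshold of 0.05. The step was tested on simulated data. All 6 members are named, and from each of the 4 gene lists at most 5 genes a comparison, those that passed with the greatest change, with any exception stated. Spleen ratios over the 6 gates of at least 20 cells in each library were counted where they reached 1.5 either way with at least 10 UMIs in both libraries together, and their intervals are exact binomial. Alternatives were DESeq2 1.42.0, library totals for scaling, no count filter, at least 500 genes a barcode, doublets kept, stricter gates, a replicate block and leaving out each library. Tables and plots were made with Python 3.11.15, NumPy 2.4.6, pandas 2.3.3, SciPy 1.17.1 and matplotlib 3.10.9. Coordinates are those of GENCODE vM21 on GRCm38, and promoter windows are from RefSeq on the same build.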

Additional observations from a re-analysis of the deposited data

Results flagged for a closer look

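The change of Ccnd3 in homozygous Y665F LN differed between CD8 T cells and B cells by 0.87 ± 0.19 on the log2 scale (adjusted p = 0.0018 by edgeR, in which 109 of 10211 genes passed). This was 1 of 3 comparisons between gates added after the data were seen, and the other two, of the BM B lineage with the Stem gate (-0.98 ± 0.23, adjusted p = 0.16) and with GMP (-1.12 ± 0.26, adjusted p = 0.068), did not pass for Ccnd3. Ccnd3 was at 264.7 and 352.4 CPM in WT CD8 T cells and 340.9 and 281.1 CPM in homozygous ones, and at 150.6 and 284.8 CPM in WT B cells and 116.2 and 117.9 CPM in homozygous ones. Neither gate passed on its own. The 2 WT libraries differed in B cells by more than the 2 homozygous ones did, and proliferation genes had a median of -1.25 in the B-cell gate and 0.19 in the CD8 T-cell gate. The part of either in this difference was not tested.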

How the results depend on the processing

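Over the 7 BM gates, 15 of 37 member tests passed between Y665F and WT, 10 passed with DESeq2 (9 of them among the 15, with no adjusted p for 2 of the 15) and between 8 and 17 with 1 library left out, the lowest without WT replicate 2. Between Y665F and Y665H 17 passed, 11 with DESeq2 (all among the 17, with no adjusted p for 3) and between 7 and 23 with 1 library left out, the lowest without Y665H replicate 1. The count between Y665H and WT was 0 under every alternative. In LN, the count of 2 between homozygous and WT mice was 1 with DESeq2, 1 with stricter gates and between 0 and 3 with 1 library left out, the lowest without homozygous replicate 2, and the count of 0 between heterozygous and WT mice was 1 without the count filter and between 0 and 0 with 1 library left out. A group left with 1 library was assumed to vary like the others. Scaling by library totals moved the median of all BM cells to 0.19 for Y665F against WT, 0.49 against Y665H and -0.27 for Y665H against WT, and 16 of the 37 member tests then passed against WT. The spleen count of 11 ratios of at least 1.5 among 66 was between 11 and 12. The ratio of Ccnd1 in spleen CD8 T cells of high Ccl5, Y665H to WT, went from 2.36 to 0.143 with stricter gates, at 16 and 9 UMIs before them.

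The labels do not say that replicate numbers pair the libraries. In BM they go with Xist and Y-linked RNA, and deviations of libraries of the same number correlated at 0.30, 0.037 and 0.28 between genotypes, against -0.13 to 0.086 in LN, so the block was kept as an alternative. With a replicate block, 18 tests passed in BM between Y665F and WT and 23 between Y665F and Y665H, 2 in LN homozygous and 0 in LN heterozygous mice. With crossed numbers in the block, added after the data were seen, 2 and 1 passed in LN.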
